A study of Drosophila melanogaster with 40 samples.

Results

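Jumu (Jumeau) is a forkhead-domain transcription factor of *Drosophila melanogaster* that is loaded into the egg, and its binding was mapped per gene from Jumu peaks in embryo DNA of 6 h and 0.75 h. A gene counted as bound when the centre of a peak lay inside it or within 1 kb of it on the dm6 genome. By this rule 906 of the 18315 annotated genes were bound: 244 at both stages, 115 at 6 h alone and 547 at 0.75 h alone. In all, 359 genes were bound at 6 h, which is 1.96% of those annotated, and the 0.75-h list reached 791 genes, or 4.32%.

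The Jumu pull-down was made in vitro. Flag-tagged Jumu from transfected HEK293T cells, a human kidney line, was held on anti-FLAG beads and mixed with fragmented genomic DNA of w1118 embryos of 6 h or 0.75 h, with 1 library a stage. DNA bound by the purified protein is therefore measured, without the chromatin of the embryo, and the embryos of the stages differ here only as a source of DNA. Expression is given as FPKM (fragment counts scaled to transcript length and library size) in w1118 wild-type embryos of 0.75 h, 3 h and 6 h, in embryos labelled *jumu* M-,Z+ (without the maternal gene product) and M-,Z- (without the maternal and the zygotic product) with a w1118 wild type at 3 h, and in M-,Z+ embryos with a w1118 wild type at 0.75 h. The mutant alleles were made by genome editing of *jumu*, and the labels do not say which allele each group carries. Each of these groups is 1 deposited value per gene for 2 libraries, so no value below has a replicate error and no difference between groups could be tested. The number of reads behind each library is unknown here.

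Forkhead proteins recognize DNA through a winged-helix domain, and their sites share a core of the letters TAAACA. The embryo of 0.75 h lives on RNA and protein supplied by the mother, and by 6 h it transcribes its own genome. N6-methyladenine (6mA) is a methylated DNA base, and 4 peak lists for it are used here, with 1 library each: from w1118 wild-type embryos of 0.75 h, 3 h and 6 h, and from 6-h embryos with a knockdown of DMAD. DMAD, also named Tet, is the fly enzyme known to remove 6mA.

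Of the marker genes, the 6 of pole cells and germ line, *vas*, *nanos*, *pgc*, *gcl*, *osk* and *aub*, ranged between 48.4 and 548 FPKM at 0.75 h, between 7.80 and 63.8 at 3 h and between 3.24 and 33.4 at 6 h. Of 9 eggshell genes made by follicle cells, the highest level at any stage was 4.35 FPKM. The 4 cuticle genes ranged from 0 to 60.7 FPKM at 0.75 h and from 0 to 91.7 FPKM at 6 h, led by *Cpr65Ea* at each stage, the earliest included. For *jumu* itself the 3-h levels were 103 FPKM in embryos labelled M-,Z+ and 55.5 in those labelled M-,Z-, against 71.8 in their wild type, and at 0.75 h they were 73.9 in M-,Z+ embryos and 98.7 in their wild type. The transcript level of *jumu* thus did not fall past the call limit used here in any mutant group, and it does not by itself check the mutant labels.

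The sequences under a few of the peaks show what kinds of DNA the protein retained. Each line gives 150 bases of dm6 (RefSeq), plus strand, around the centre of the strongest peak of the gene, with any match to TAAACA or its reverse complement TGTTTA in capitals. *lilli* was one of the genes the study singled out, *kl-2* and *CARPB* had high-ranking peaks among genes bound at both stages, *gpp* led the genes bound at 0.75 h alone, and *sog* was added after its values were seen, as a strong peak of a gene bound at 6 h alone outside the Y chromosome. The peaks of *zld* and *Trf2* lay in 3′ untranslated sequence and are described without their bases.
lilli, 6-h peak, intron, chr2L:2935952-2936101: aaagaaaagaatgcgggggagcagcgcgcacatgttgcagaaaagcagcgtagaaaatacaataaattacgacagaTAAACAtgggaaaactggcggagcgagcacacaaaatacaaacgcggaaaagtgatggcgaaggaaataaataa
kl-2, 0.75-h peak, intron, chrY:653053-653202: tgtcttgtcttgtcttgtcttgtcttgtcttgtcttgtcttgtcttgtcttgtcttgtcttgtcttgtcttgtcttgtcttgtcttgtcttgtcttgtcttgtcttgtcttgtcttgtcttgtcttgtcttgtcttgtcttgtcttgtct
CARPB, 6-h peak, intron, chrX:9809284-9809433: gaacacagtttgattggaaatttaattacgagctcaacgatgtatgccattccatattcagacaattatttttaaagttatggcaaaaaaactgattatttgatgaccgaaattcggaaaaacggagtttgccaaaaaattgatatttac
sog, 6-h peak, intron, chrX:15620016-15620165: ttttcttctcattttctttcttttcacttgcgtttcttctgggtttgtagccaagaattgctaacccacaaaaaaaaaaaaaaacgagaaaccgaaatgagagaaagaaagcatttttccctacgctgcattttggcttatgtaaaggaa
gpp, 0.75-h peak, intron, chr3R:6416768-6416917: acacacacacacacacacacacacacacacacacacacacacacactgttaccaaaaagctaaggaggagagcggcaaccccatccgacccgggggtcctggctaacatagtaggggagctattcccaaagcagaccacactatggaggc

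The bases of *kl-2* were a pure repeat of 5 bases, where each base equals the base 5 positions before it at 100% of positions, against 22.8% to 42.8% in the other printed windows. *lilli* held 1 match to the core, and no other printed window held any. Within the list of 6-h peaks at genes, 6 of 512 peaks repeated with this period at 90% or more of their central 200 bases. Reads from such repeats match many places in the genome, so the gene at which these peaks stand is uncertain. The peaks lay in *ORY*, *Ppr-Y*, *Pzl*, *WDY*, *kl-2* and *kl-5*, reached a score of 222658 and made up 5 of the 10 highest-scoring peaks at genes. At 0.75 h, 2 of 1489 peaks at genes did so, in *kl-2* and *kl-5*, with a highest score of 18452. The score deposited for a peak is 10 times the −log10 of its q value and ranks peaks only within a list.

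Of the 921 peaks in the 6-h list, 512 (55.6%) were within reach of a gene, and of the 3079 peaks in the 0.75-h list 1489 (48.4%) were. Some peaks counted for several genes: 66 at 6 h and 174 at 0.75 h, so that neighbouring genes are not separate observations. The 1 kb limit admitted 91 genes at 6 h and 176 at 0.75 h that had no peak inside the gene, and moving it out to 2 kb would have added 90 genes at 6 h and 247 at 0.75 h. The lowest best scores of bound genes were 16 at 6 h and 13 at 0.75 h, where 13 is the edge of the deposited lists.

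Most genes bound at 6 h were also bound at 0.75 h. The share was 68.0% (244 of 359, exact 95% interval 62.9 to 72.8, counting error only), and in the other direction 30.8% of the 791 genes bound at 0.75 h (27.6 to 34.2) were bound at 6 h. In 226 of the 244 genes, 92.6% (88.6 to 95.6), a 6-h peak overlapped a 0.75-h peak of the same gene by at least 1 bp, so the stages mostly shared a site and not only a gene. Of the 115 genes at 6 h alone, 2 had a 6-h peak that overlapped a 0.75-h Jumu peak centred beyond the gene window, and 1 of the 547 genes at 0.75 h alone had the converse. When the 0.75-h list was trimmed to its 921 highest peaks, 150 genes were bound at both stages, 209 at 6 h alone and 124 at 0.75 h alone, and the shared part of the 6-h genes was 41.8%. The excess of genes at 0.75 h alone over those at 6 h alone therefore depended on the length of the 0.75-h list and turned round without it.

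**Figure D1:**
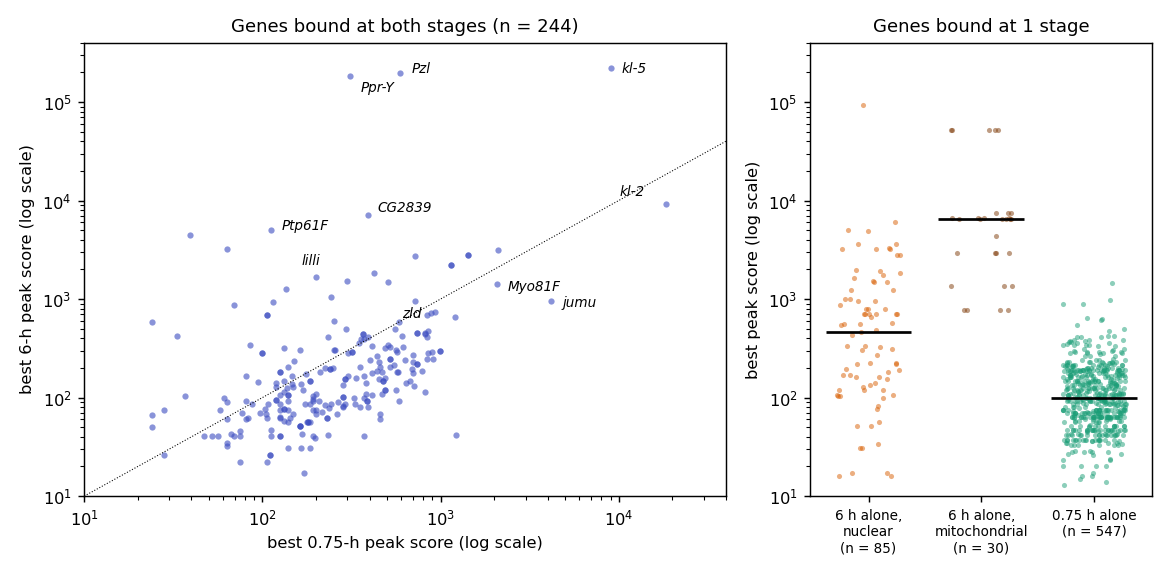
Best Jumu peak score per gene on log axes. Left, each point is 1 of the 244 genes bound at both stages, 6 h on the vertical and 0.75 h on the horizontal axis, with equal scores on the dotted line; right, the genes bound at 6 h alone (85 nuclear, 30 mitochondrial) and the 547 at 0.75 h alone, with medians as bars. Genes with simple repeats (*kl-5*, *Pzl*, *Ppr-Y*) reach 222658, 198631 and 182564 at 6 h, and the medians at right are 463 (6 h alone, nuclear), 6420 (6 h alone, mitochondrial) and 99 (0.75 h alone). Scores rank peaks only within a list, so heights are not comparable between the stages.

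The genes bound at 6 h alone held a separate group from the mitochondrial genome. Of the 115, 30 were mitochondrial (13 protein-coding, 16 tRNA and 1 rRNA gene), from 9 peaks, while the 0.75-h Jumu list had 0 peaks on that genome. Their best scores ranged from 772 to 52404, with *mt:Cyt-b* (cytochrome b) and *mt:ND1* (a subunit of complex I) sharing the highest peak and *mt:CoI* and *mt:CoII*, subunits of cytochrome oxidase, sharing one of 7438. All 30 had a 6mA peak at 0.75 h and 19 had one at 6 h, so mitochondrial DNA was reached by the 6mA lists of both stages. No stage FPKM was matched to these genes. Without the mitochondrial genome 85 genes were bound at 6 h alone and 74.2% of the 329 nuclear genes bound at 6 h (69.1 to 78.8) were bound at both stages.

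The 85 nuclear genes at 6 h alone had a median best score of 463 (quartiles 134 and 1237) within the 6-h list, where the genes bound at both stages had a median of 142.5. Of the 85, 43 lay on the X chromosome, beside 66 of the 244 genes bound at both stages and 2813 of all 18315 genes. Some of the 43 shared a peak. After *ORY*, a Y-linked gene used in sperm, high scores were those of *CG43861* (6051), *sog* (3593), an extracellular antagonist of the BMP ligand Dpp, *CG32700* (3583), and *CG33223*, *Cp36* and *Cp38*, which shared 1 peak of 3207. *Cp36* and *Cp38* are chorion genes of the eggshell and were at or below 0.171 FPKM at every stage. *Myc*, the growth regulator, had a 6-h peak of 1539. Of the 85, 76 genes had a 6mA peak at 0.75 h and 56 at 6 h, and in 68 (80.0%, 69.9 to 87.9) the 6-h Jumu peak itself overlapped a 0.75-h 6mA peak.

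The 547 genes at 0.75 h alone had a median best score of 99 within the 0.75-h list, where the genes bound at both stages had a median of 240. Led by *gpp* (1440), the fly Dot1 histone H3 lysine 79 methyltransferase, the 5 protein-coding genes with the highest scores also included *Glg1* (884), a Golgi protein gene, *trio* (639), an exchange factor for Rac in axon guidance, *ctrip* (630), a ubiquitin ligase of the circadian clock, and *Gug* (606), the Atrophin corepressor. All 5 were present at every stage of the wild type, between 28.9 and 158 FPKM. In this class 79 genes were non-coding RNA genes and 18 were rRNA genes or fragments, several of them near-identical copies whose reads could be split.

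Genes bound at both stages often held several peaks: 84 of the 244 (34.4%) had 2 or more at 6 h and 126 (51.6%) had 2 or more at 0.75 h, while 16.5% of the genes at 6 h alone and 18.5% of those at 0.75 h alone did. A few very long genes held the most. *Myo81F*, a myosin gene of 1966 kb in the pericentric heterochromatin of 3R, held 40 peaks at 6 h and 162 at 0.75 h. *Pzl*, a Piezo-like channel gene, had 20 and 61, *CG17684* had 16 and 45, *DIP-lambda*, an immunoglobulin-domain receptor gene, had 14 and 43, *Snap25*, a synaptic vesicle fusion gene, had 11 and 19, and *lovit* had 5 and 31, each pair at 6 h and at 0.75 h. Of these, *Myo81F*, *Pzl*, *Snap25* and *lovit* stayed below 0.3 FPKM at all 3 stages, *DIP-lambda* was at most 0.93 FPKM and *CG17684* at most 1.76. 

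Protein-coding genes bound at both stages were ranked by best score within each stage's list and ordered by the worse of their ranks. The 10 leading genes were *kl-5* (222658 at 6 h, 9058 at 0.75 h), *kl-2* (9312 and 18452), *CARPB* (2719 and 716), the neighbours *CG9686* and *CG9689* with a shared peak (2237 and 1151), *Pzl* (198631 and 595), *Ten-a* (1484 and 507), *Myo81F* (1416 and 2078), *CG42340* (956 and 716) and *SPoCk* (1834 and 425). *kl-5* and *kl-2* encode dynein heavy chains of the sperm tail and *SPoCk* a calcium pump of the secretory pathway, and in *SPoCk* and *CG42340* alone of the 10 the stages had no overlapping peaks. *SPoCk* was also the only one of them above 5 FPKM at 0.75 h (77.7, 49.8 and 30.04 FPKM at 0.75 h, 3 h and 6 h).

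Bound genes were long. The median length was 32.8 kb for genes bound at both stages, 7.52 kb for the nuclear genes at 6 h alone and 11.2 kb for those at 0.75 h alone, against 1.58 kb for genes not bound. Nuclear protein-coding genes were ranked by length into 10 groups of equal size. In the longest group (14.7 kb and over) 12.7% of genes were bound at 6 h and 27.4% at 0.75 h, and in the next one 3.01% and 6.94%. In the 8 groups of shorter genes the shares ranged from 0.286% to 0.931% at 6 h and from 0.787% to 3.08% at 0.75 h. A longer gene offers more room for a peak. The comparisons of 6mA, of wild-type FPKM and of the 3-h mutants below are therefore also given among protein-coding genes over 10 kb.

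**Figure D2:**
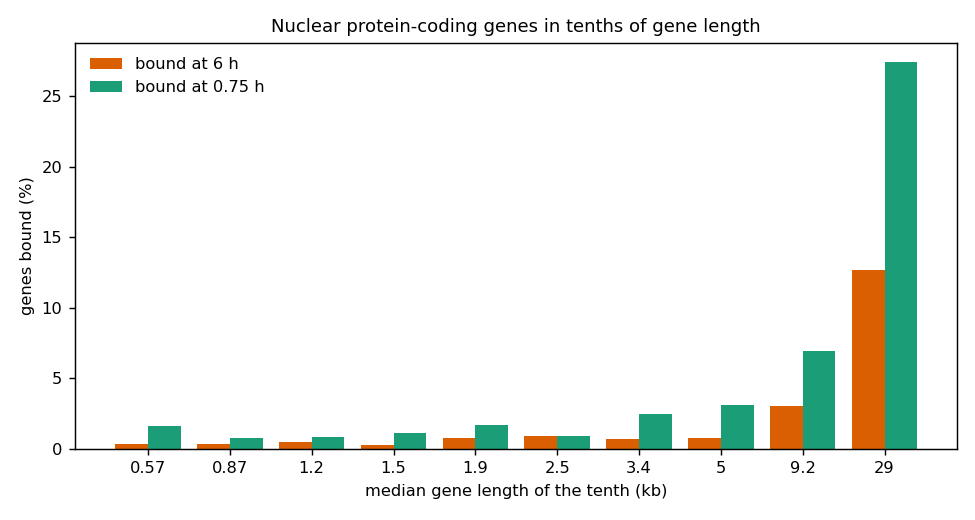
Share of nuclear protein-coding genes bound by Jumu at 6 h (orange) and at 0.75 h (green), in 10 groups of rising gene length (1396 or 1397 genes each), with the median length of each group in kb under its bars. The longest group stands at 12.7% and 27.4%, and none of the 8 shortest passes 3.08%.

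Chromosomes differed in their share of bound genes. On the Y, 10 of 113 genes (8.85%) were bound at 6 h and 29 (25.7%) at 0.75 h. On the X the shares were 3.88% and 6.51% of 2813 genes, against 1.20% to 1.86% at 6 h and 3.37% to 4.44% at 0.75 h on the large autosomal arms. The small chromosome 4 had 3 (2.54%) of its 118 genes bound at 6 h and 9 (7.63%) at 0.75 h.

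Peaks lay inside introns more often than elsewhere. For the genes bound at both stages 69.0% of the 474 pairs of a 6-h peak and a gene were intronic, 8.65% were in coding exons, 8.44% in 3′ untranslated and 3.59% in 5′ untranslated sequence, and 3.16% and 4.64% lay upstream and downstream of the gene. Their 976 pairs at 0.75 h were intronic in 80.0%. The 3 genes with the most peaks supplied 76 of the 474 pairs and 268 of the 976, so these pairs are not separate observations. No intronic share of the genome is set beside these values. For the nuclear genes at 6 h alone, 51.0% of 96 pairs were intronic, 13.5% upstream and 20.8% downstream. For the genes at 0.75 h alone, 42.5% of 737 pairs were intronic and 14.5% in 3′ untranslated sequence.

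The DNA under the peaks also differed between the classes. In genes bound at both stages, 52.0% of the peaks found at 6 h and 39.6% of those found at 0.75 h were soft-masked as repeats over more than 50% of their central 200 bp, against 59.2% of the nuclear peaks of genes at 6 h alone, 25.6% of the peaks of genes at 0.75 h alone and 10.2% of all 200-bp windows of the nuclear genome. The GC content was 35.4%, 38.5%, 34.4% and 41.6% in the same order, against 42.1% in the genome. The core TAAACA, on either strand and with overlaps counted once per window, was found in 31.0% of the 6-h peaks of genes bound at both stages and in 26.4% of their 0.75-h peaks, in 15.8% (12 of 76) of the peaks at 6 h alone, in 22.3% at 0.75 h alone and in 17.7% of the genome windows. With a G before it, as GTAAACA, it was found in 1.15%, 2.91%, 2.63% and 4.52% of these peak sets in the same order and in 3.82% of the genome windows. The core is rich in A and T, and the peaks differ from the genome in base composition. The part of base composition in these shares was not tested, nor was that of the few genes with many peaks.

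Most bound genes also carried 6mA peaks. In the 359 genes bound at 6 h, 256 (71.3%, 66.3 to 75.9) had a 6-h Jumu peak that overlapped a 6-h 6mA peak, and in the 791 bound at 0.75 h, 574 (72.6%, 69.3 to 75.7) had a 0.75-h Jumu peak that overlapped a 0.75-h 6mA peak. Counted per gene, 77.0% of the genes bound at both stages, 65.2% of those at 6 h alone and 39.5% of those at 0.75 h alone had a 6-h 6mA peak, beside 2.1% of the genes not bound and 4.61% of all genes. For the 0.75-h 6mA list these shares were 86.9%, 92.2%, 85.6% and 18.9%, beside 22.2% of all genes. Among protein-coding genes over 10 kb, the 6-h 6mA share was 87.4%, 67.6% and 51.1% in the 3 classes, against 12.5% of those not bound, and the 0.75-h share was 98.0%, 89.2% and 95.1%, against 71.0%. The Jumu and 6mA lists of a stage carry the same control number in their peak names, so a fault of that control would enter both.

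A minority of Jumu peaks at genes had no 6mA peak of any list under them: 52 of 512 (10.2%) at 6 h and 373 of 1489 (25.1%) at 0.75 h. Of these, 28.8% and 15.8% had their centre in a coding exon, while among peaks that overlapped a 6mA peak the share was 8.91% at 6 h and 5.65% at 0.75 h. Mean GC content was 47.6% (6 h) and 49.5% (0.75 h) without 6mA, against 33.7% (6 h) and 36.4% (0.75 h) with it.

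The peaks at *jumu* itself belonged to that minority and had an unusual outline. At each stage the gene (3R:10350182-10361612) had 2 peaks, with best scores of 947 at 6 h and 4185 at 0.75 h. The first peak began at position 10350528, which is the first coding base, at both stages. The second began at 10358098, 1 base before the second coding exon, and ended 16 bases past the last coding base at 6 h and 93 bases past it at 0.75 h. Together they covered 100% of the 2157 coding bases at both stages, and none of the 4 6mA lists had a peak in the gene. Among the genes bound at a stage no other had its whole coding sequence covered, and the next highest were *Ste12DOR* (94.8%) at 0.75 h and *mt:ND1* (84.8%) at 6 h. The Jumu protein of the assay was expressed from a plasmid, and whether DNA of that plasmid is part of these peaks was not tested. *jumu* is 1 of the 244 genes counted at both stages.

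The 4 genes the study singled out as targets were all bound at 0.75 h, and 2 of them at 6 h. They were chosen on these samples, so this count is no independent evidence. *zld* encodes Zelda, the pioneer factor of zygotic genome activation. It had 1 peak at each stage, of 498 at 6 h and 556 at 0.75 h, at the same place in the 3′ untranslated region, 16.5 kb from the gene start, with a 6mA peak over it in both wild-type stages (2158 at 6 h, 1955 at 0.75 h). *lilli*, an AF4/FMR2 family transcription elongation factor, had 2 peaks at 6 h and 3 at 0.75 h. Its strongest 6-h peak, at 50.1 kb in an intron, scored 1668, and the 0.75-h peak at that place scored 154.

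*Trf2*, a TBP-related factor, had 1 peak, at 0.75 h alone, with a score of 126 in the 3′ untranslated region. *lola*, a BTB zinc finger factor of axon guidance, had 2 peaks at 0.75 h alone, of 133 in a coding exon and 112 in an intron, each over a 0.75-h 6mA peak and neither over a 6-h one. No 6-h Jumu peak lay in *lola* or *Trf2*, although *Trf2* had a 6-h 6mA peak of 98 at the site of its 0.75-h Jumu peak. With scores of 112 to 133 these peaks stand near the median of the 0.75-h list, 106.

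**Figure D3:**
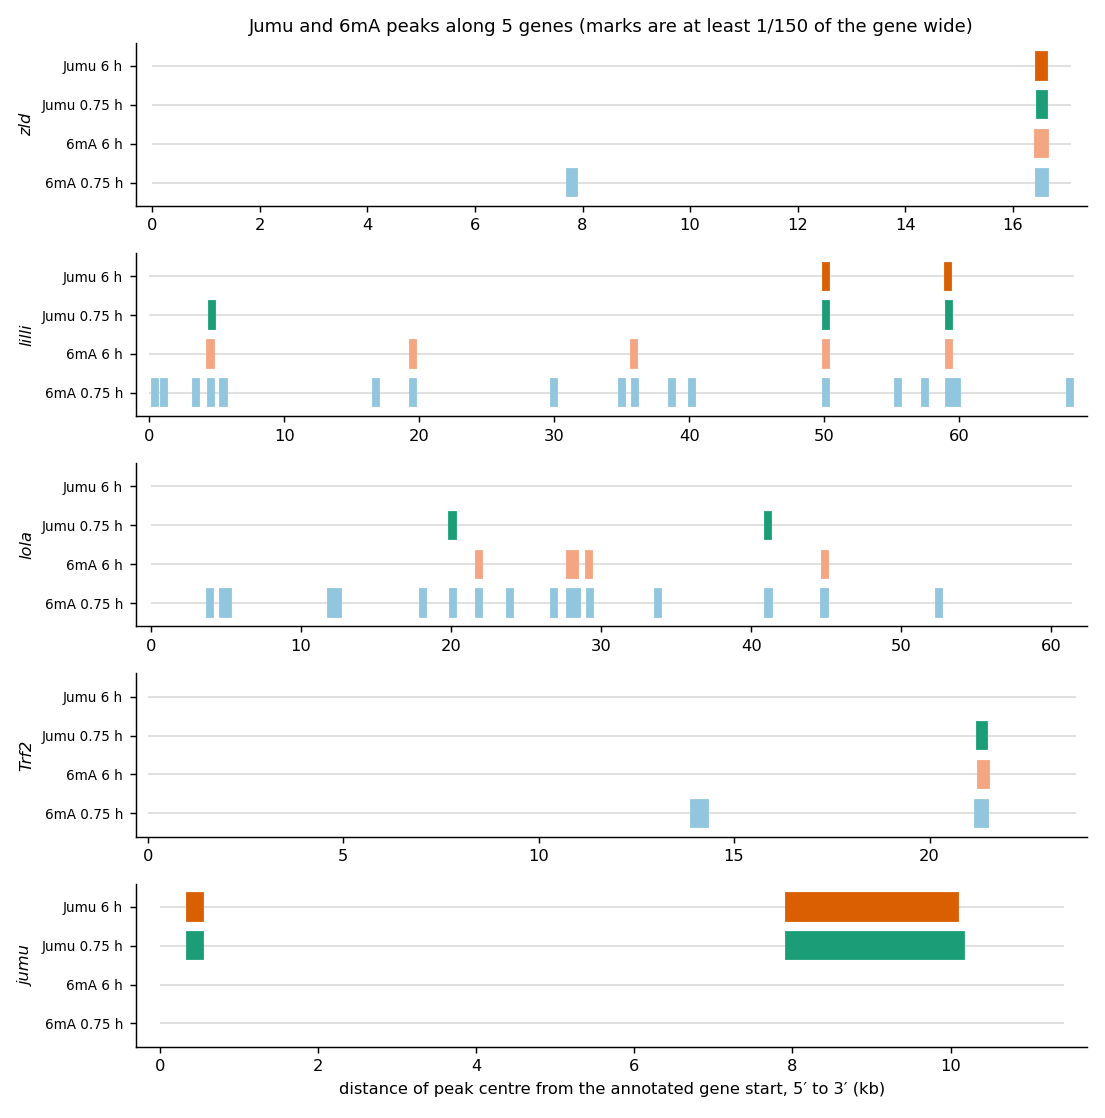
Jumu and 6mA peaks along *zld*, *lilli*, *lola*, *Trf2* and *jumu*, as the distance of the peak centre from the annotated gene start in kb, with 6-h and 0.75-h Jumu peaks above the 6mA peaks of the same stages. In *zld* and *lilli* the 6-h Jumu peaks stand over 0.75-h Jumu peaks and 6mA peaks, in *lola* and *Trf2* only the 0.75-h one of the Jumu rows is filled, and the 2 Jumu peaks of *jumu* have no 6mA peak under them.

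The lists of named genes are described by how many members were bound, beside 1.96% of all genes at 6 h and 4.32% at 0.75 h. Of 12 Y-linked genes, most of them needed in the male germ line, 9 were bound at 6 h and 7 at 0.75 h. Of 31 genes of pericentric heterochromatin, 12 were bound at 6 h and 17 at 0.75 h, among them *rl*, the ERK kinase, with 2 peaks at 6 h and 5 at 0.75 h, and *AGO3*, a piRNA-pathway Argonaute, with 2 and 4. *vtd*, the cohesin subunit Rad21, was bound at 6 h alone, with 3 peaks.

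Of 30 ion channel and synapse genes, 8 were bound at 6 h and 17 at 0.75 h, among them *cac*, a calcium channel (409 at 6 h, 235 at 0.75 h), *SK*, a potassium channel (42 and 1219), and *Rdl*, a GABA receptor (57 and 184). Their median length was 42.0 kb and their median FPKM 0.18 at 0.75 h, 0.71 at 3 h and 0.67 at 6 h. Bound members with a value, all but *dnc*, *dlg1* and *rut*, were below 1 FPKM at 0.75 h. Of 40 adhesion and axon guidance genes, 7 were bound at 6 h and all 7 of those also at 0.75 h, where 17 were bound. *Ten-a*, a teneurin, had 6 peaks at each stage, *kirre*, an immunoglobulin protein of myoblast fusion, 2 at 6 h and 3 at 0.75 h, and *Fas2*, a neural cell adhesion molecule, 3 at each.

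Of 20 BTB and zinc finger transcription factors, 6 were bound at 6 h and 11 at 0.75 h, with a median length of 54.7 kb. *bab1*, a factor of limb and pigment patterning, was bound at 6 h alone (1768) and its neighbour *bab2* at 0.75 h alone (140). *br* and *Eip93F*, factors of the ecdysone response, were bound at both stages. Of the 7 members bound at 0.75 h alone, *pros*, a factor of neural fate, and *pnt*, an ETS factor, had the most peaks, 3 each.

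Lists of early developmental regulators follow. Of 17 forkhead family genes, 1 was bound at 6 h and 4 at 0.75 h: *jumu* at both, and *foxo* (42), *fkh* (62) and *CHES-1-like* (52) with weak peaks at 0.75 h alone. Of 20 regulators of the maternal-to-zygotic transition, 2 were bound at 6 h and 5 at 0.75 h. Beside *zld*, *brat*, a translational repressor and tumour suppressor, was bound at both stages with 3 and 4 peaks, and *grh*, *nej* and *Tl* at 0.75 h alone. Of 24 segmentation genes 1 was bound at 6 h and 4 at 0.75 h: *hry* (hairy) at both, with scores of 245 and 906, and *ptc*, *inv* and *wg* at 0.75 h alone. Of 19 dorsoventral patterning genes 2 and 3 were bound, *sog* at 6 h alone, *rho* at both, *brk* and *tup* at 0.75 h alone. Of 8 Hox genes *Dfd* was bound at 6 h alone (325) and none at 0.75 h. Of 22 chromatin proteins *ph-p* was bound at 6 h alone (31) and *Tet* at 0.75 h alone (184), and of 17 cellularization genes none at 6 h and *nuf* at 0.75 h. The lists were described by these counts and not tested. Their median lengths ranged from 3.83 kb (forkhead) and 3.85 kb (segmentation) through 4.74 kb (cellularization), 7.02 kb (chromatin), 12.8 kb (maternal-to-zygotic transition) and 14.1 kb (dorsoventral) to 30.6 kb (Hox), beside 1.64 kb for all genes.

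**Figure D4:**
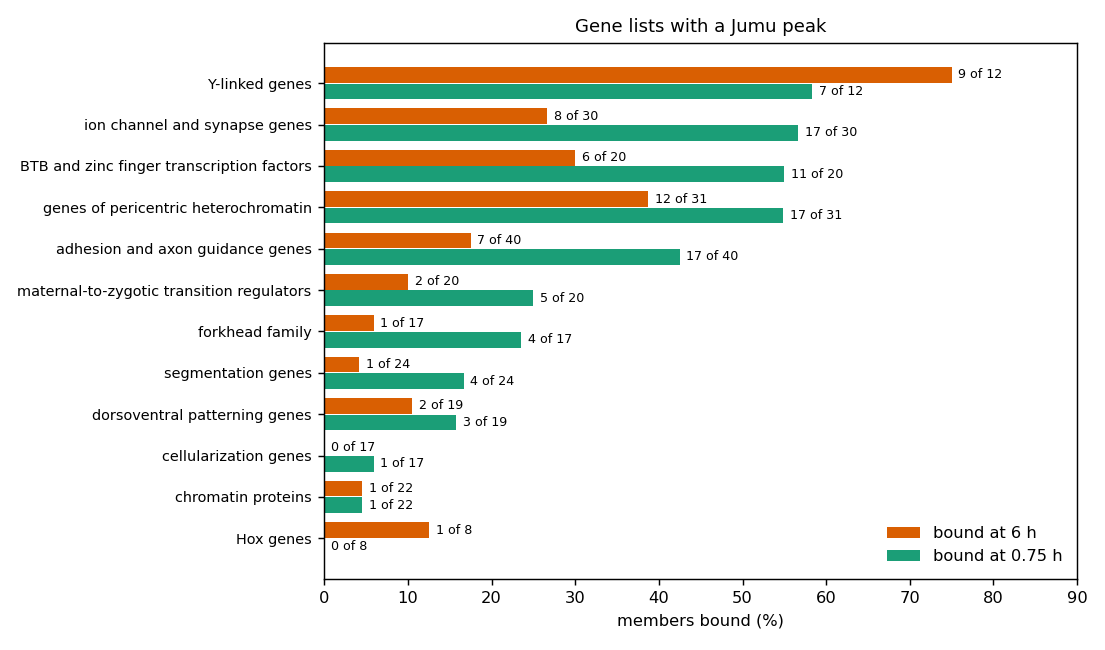
Members of each gene list with a Jumu peak, in percent of the list, at 6 h (orange) and 0.75 h (green), with the counts beside the bars. Of the lists drawn, which leave out the 4 genes the study singled out, the Y-linked list stands highest (9 of 12 and 7 of 12), and cellularization, chromatin and Hox lists have at most 1 bound member at a stage.

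In wild-type embryos, median levels of bound genes were above that of all genes at each stage. The 228 genes bound at both stages with an FPKM had medians of 0.979, 1.97 and 3.05 FPKM at 0.75 h, 3 h and 6 h, the 77 at 6 h alone 0.820, 1.90 and 5.93, and the 526 at 0.75 h alone 0.462, 1.53 and 2.65, beside 0.214, 0.933 and 1.11 for all 17296 genes. The quartiles were wide, 0.311 to 25.4 FPKM at 6 h for the genes bound at both stages. The medians also depended on processing. After quantile normalization they were 2.35, 1.71 and 2.06 FPKM for both stages, 2.11, 1.63 and 4.24 for 6 h alone and 1.37, 1.30 and 1.79 for 0.75 h alone. With a q value below 1e-05 in both lists, the 6-h median of genes at 6 h alone was 2.86 FPKM. Genes at both stages and at 0.75 h alone then had 2.92 and 3.10. Counting only genes that reached 1 FPKM at some stage, the medians were 9.93, 9.37 and 13.8 FPKM for both stages. For 6 h alone they were 33.5, 18.1 and 18.1, and for 0.75 h alone 23.9, 12.4 and 17.6, highest at 0.75 h. Among protein-coding genes of any length, the 6-h medians were 3.68, 11.4 and 7.86 FPKM for both stages, 6 h alone and 0.75 h alone. At 6 h, 61.4%, 55.8% and 58.0% of the 3 classes reached 1 FPKM, against 50.4% of genes not bound. Among protein-coding genes over 10 kb the medians at 6 h were 4.54, 15.9 and 9.45 FPKM in these classes and 6.71 in genes not bound, so that among long genes those bound at both stages were the lowest. The 75 bound genes to which no stage value was matched by gene identifier are not in these counts. The stages are separate tables, and a common scaling is not given in the sources used here.

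A change between stages was called from 1 upward in log2(FPKM + 1), for genes that reached 1 FPKM at some stage, and this scale understates the change of low genes. Among all genes so tested 25.6% rose at 6 h against 0.75 h and 22.2% fell. Of the genes bound at both stages 54 of 153 (35.3%) rose and 35 (22.9%) fell, of those at 6 h alone 12 of 45 (26.7%) rose and 14 (31.1%) fell, and of those at 0.75 h alone 101 of 325 (31.1%) rose and 74 (22.8%) fell. After quantile normalization of the stages 45 of the genes bound at both rose and 44 fell, while over all genes 21.3% rose and 21.6% fell. Among protein-coding genes over 10 kb, 33.6%, 37.9% and 31.9% of the classes rose, beside 32.7% of the genes not bound, while 22.4%, 24.1% and 23.8% fell, beside 21.7%. Within long genes the shares in the bound classes thus lay close to those of genes without a Jumu peak.

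**Figure D5:**
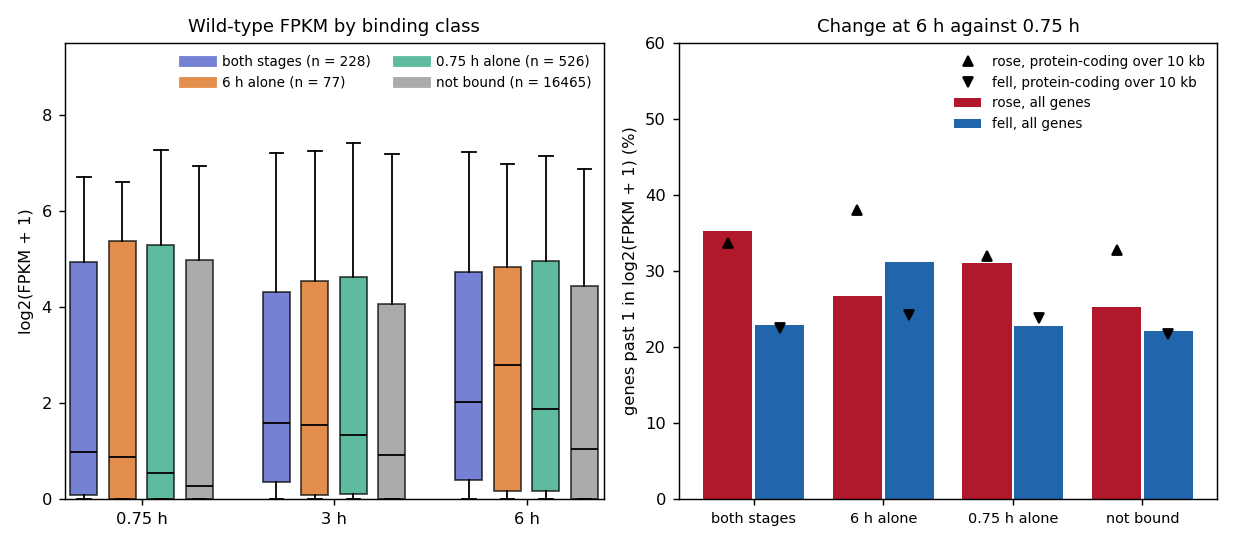
Left, wild-type log2(FPKM + 1) at 0.75 h, 3 h and 6 h by binding class (boxes, quartiles with the median; whiskers, 5th to 95th percentile). Right, the percent of genes that rose or fell by 1 or more in log2(FPKM + 1) at 6 h against 0.75 h (bars, all genes; triangles, protein-coding genes over 10 kb). The upward triangles span 31.9% to 37.9% in the bound classes and stand at 32.7% for genes not bound.

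The largest changes in each class are given next. Of genes bound at both stages, *bib*, a channel protein of neurogenesis, had 1.29 FPKM at 0.75 h, 209.6 at 3 h and 240.3 at 6 h (log2 change 6.72 at 6 h against 0.75 h). *hth*, a TALE homeodomain cofactor of Hox proteins, had 2.19, 149 and 210.1 FPKM (6.05), and *tna*, *Fas2* and *Ten-a* followed with changes of 5.49, 5.10 and 4.54. In the opposite direction *CG10237* fell to 5.58 FPKM at 6 h, against 222 at 0.75 h (−5.08), followed by *AnxB10*, *CanA-14F*, *Tsp74F* and *CG9578* with changes of −4.32 to −3.63. *AnxB10* and *CG9578* had the same pair of peak scores (149 at 6 h, 474 at 0.75 h).

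Of the genes at 6 h alone, *l(3)neo38*, a zinc finger gene, had 3.66, 150 and 288 FPKM at 0.75 h, 3 h and 6 h (5.95), and *sog* had 0.665, 137 and 44.0 FPKM (4.76). *ph-p*, a Polycomb group protein gene, *HnRNP-K* and *mgl*, an LDL receptor family gene, rose by 3.96, 3.77 and 3.67. *Pka-R2*, a regulatory subunit of protein kinase A, *Vha100-2*, a proton pump subunit, *Chpf*, *enc* and *Syx13* fell, with changes of −3.48, −2.93, −2.72, −2.02 and −2.003. In this class rises and falls thus stood side by side, 12 and 14.

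Of the genes at 0.75 h alone, *Tet*, which encodes the 6mA demethylase DMAD, had 0.686, 3.22 and 120 FPKM at 0.75 h, 3 h and 6 h (6.16). *edl*, *unc-5*, a netrin receptor, *ptc*, the Hedgehog receptor, and *pros* rose by 5.98, 5.88, 5.86 and 5.64. The largest falls had changes of −6.03 (*CG8180*), −5.91 (*superdeath*), −5.85 (*bru1*, the Bruno translational repressor of the oocyte), −5.34 (*slif*, an amino acid transporter) and −5.33 (*E23*). *bru1* was at 10.001 FPKM at 6 h, against 633 at 0.75 h.

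In the *jumu* mutants the changes of bound genes were set against a wild type of their own series. Both mutants at 3 h share that wild type, so each is given by itself. It is not the 3-h wild type listed with 0.75 h and 6 h, and single genes differed between them in either direction. *ptc* was at 24.8 FPKM in the wild type of the mutants and 113 in the other, and *hth* at 334 and 149. How much of the mutant changes lies within such differences was not tested. In embryos labelled M-,Z+ at 3 h, 107 of 567 bound genes (18.9%) rose and 54 (9.52%) fell, while over all genes tested 11.3% rose and 11.5% fell. By class 31 of 166 genes bound at both stages rose and 17 fell, 4 of 53 at 6 h alone rose and 6 fell, and 72 of 348 at 0.75 h alone rose and 31 fell. Among protein-coding genes over 10 kb, 23.1%, 8.82% and 27.4% of these classes rose, beside 22.1% of the genes not bound, and 6.61%, 5.88% and 3.54% fell, beside 2.05%. Among long genes the share that rose thus lay near that of genes without a peak in the classes bound at 0.75 h, and below it in the genes at 6 h alone (3 of 34). The share that fell was above that of genes without a peak in each class, on small counts (8 of 121, 2 of 34 and 8 of 226, against 23 of 1123).

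In embryos labelled M-,Z- at 3 h, 124 of 567 bound genes (21.9%) rose and 114 (20.1%) fell, while over all genes tested 18.0% rose and 20.1% fell. The median change was −0.42 for genes bound at both stages, −0.09 for those at 6 h alone, 0.05 for those at 0.75 h alone and −0.04 over all genes tested. Among protein-coding genes over 10 kb 23.1%, 29.4% and 23.5% of the classes rose, beside 23.4% of the genes not bound, while 19.0%, 17.6% and 15.5% fell, beside 15.8%. After quantile normalization of the 3 groups, 118 bound genes rose and 68 fell, which moved the rises to 63.4% of the calls, against 52.1% as deposited. Over all genes 16.2% then rose and 15.0% fell, so falls dropped among all genes as well. In M-,Z+ embryos at 0.75 h few genes moved at all: 12 of 442 bound genes (2.71%) rose and 17 (3.85%) fell, while over all genes tested 1.39% rose and 3.75% fell. Under quantile normalization 15 rose and 11 fell there, with 1.92% and 3.20% over all genes, so no direction can be read from that comparison.

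For the targets the mutant values were as follows. *zld* was at 160 FPKM in M-,Z+ and 137 in M-,Z- embryos at 3 h, against 89.98 in their wild type (0.83 and 0.60 on the log2 scale), and at 108 in M-,Z+ embryos at 0.75 h, against 67.6 in their wild type (0.67). None of these passed 1. That is a limit on fold, whereas the study called changes by q value and reports *zld* as up-regulated without maternal Jumu. It also counts *lilli*, *lola* and *Trf2* among its Jumu-bound genes changed in both mutants. *lilli* was at 23.1 FPKM in M-,Z+ and 36.6 in M-,Z- embryos, against 9.01 in their wild type, and rose past 1 in both (1.26 and 1.91). *Trf2* was at 184 and 185 FPKM, against 100.1 (0.87 and 0.88), which did not pass 1. In the separate 3-h wild type listed with 0.75 h and 6 h, *zld* was at 146 FPKM, *lilli* at 16.3 and *Trf2* at 124. For *zld* that level lay between the mutant values, and for *lilli* and *Trf2* below both. No FPKM was matched to *lola* by gene identifier, which does not show that it was not measured.

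Among the strongest peaks of 6 h, *sog* was at 134 FPKM in M-,Z+ and 38.6 in M-,Z- embryos at 3 h, against 46.0 in their wild type, so that it rose in one mutant (1.53) and not in the other (−0.25). *Ptp61F*, a tyrosine phosphatase of JAK/STAT signalling with a 6-h score of 5005 and a 0.75-h score of 112, was at 170 and 244 FPKM, against 115 (0.56 and 1.07). *brat*, whose best 6-h score was lower (361), rose in both mutants, with 103 and 125 FPKM against 44.4 (1.19 and 1.47). In the separate 3-h wild type *sog* was at 137 FPKM, near its M-,Z+ value, and *brat* at 78.4, below both mutants. Other genes with strong 6-h peaks went either way. *CG9686* (score 2237) fell in both mutants (−1.77 in M-,Z+ and −1.85 in M-,Z-), and *CG32700* (3583) fell past 1 in M-,Z+ alone (−1.09). *SPoCk* (1834) rose past 1 in both mutants, and *CARPB* (2719) and *Ten-a* (1484) passed 1 in neither. No common direction can thus be read from the strong 6-h peaks.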

How the data were processed

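The 2 Jumu lists (1 library a stage) and 4 6mA lists were used. Peaks were called by the authors with MACS2 against IgG (q limit 0.05) on Bowtie2 alignments to dm6, and each list deposited holds positions and a score. The extract protocol in the labels of the 6-h Jumu library describes messenger RNA isolation, while the study's methods describe the DNA pull-down for both stages; the list was used as peaks. For RNA, the authors deposited FPKM values from Cuffdiff, 1 per gene and group of 2 libraries; depth is unknown and no test across groups was possible.

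Genes came from Ensembl release 115, without the 5889 transposon insertions and without genes on unplaced scaffolds. FPKM values were matched by gene identifier, and 17296 of 18315 genes had a stage FPKM. A peak counted for every gene its centre lay in or within 1 kb of; peaks overlapped from 1 bp. Shares have 95% Clopper-Pearson intervals. Changes used a pseudocount of 1 and genes with FPKM of at least 1 in some group. Named were genes of 13 lists (256 members, all found, 7 names respelled), the highest best scores of each class (10, 5 and 5), the 5 genes with most peaks a stage, and in each class the 5 largest rises and falls among protein-coding genes with FPKM of at least 5; *sog*, *Myc*, *Ptp61F* and the strong nuclear genes at 6 h alone were chosen after their values were seen, and 1 gene and some sequences that these rules pick are not reported here. The members and lists were chosen with earlier results of these data known. The gene assignment was tested on simulated peaks. Python 3.11.15, numpy, scipy and pandas were used.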

Additional observations from a re-analysis of the deposited data

How the results depend on the processing

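No paired analysis was possible because each stage has 1 pull-down library and each RNA group 1 pooled value, and for the same reason no replicate could be left out. With the 0.75-h list trimmed to the length of the 6-h list, 150, 209 and 124 genes were bound at both stages, 6 h alone and 0.75 h alone, with 41.8% of 6-h genes shared and 87.3% of both-stage genes holding an overlapping pair. A 5-kb window gave 485, 209 and 1182 genes, and no window gave 60 genes at 6 h alone and a shared 77.6%. Protein-coding genes alone gave 75 at 6 h alone and 74.8% shared, the nearest gene alone 71 and 74.7%, and leaving out the mitochondrial genome, chosen after seeing the data, 74.2% shared. Without soft-masked peaks 126 genes were bound at both stages, 60.3% were shared and 96.0% held an overlapping pair, and with 50% of both peaks required 82.4% did. Requiring 50% of both peaks also lowered the overlap with 6mA peaks to 49.0% of 6-h-bound and 50.9% of 0.75-h-bound genes. A pseudocount of 0.1 raised the bound genes that fell to 90 (M-,Z+, 3 h), 182 (M-,Z-, 3 h) and 30 (M-,Z+, 0.75 h), and quantile normalization lowered them to 68 (M-,Z-, 3 h) and 11 (M-,Z+, 0.75 h); for 6 h against 0.75 h it gave 135 bound genes that rose and 123 that fell, against 167 and 123 as deposited. Of 106 alternatives for the main results, 26 moved a share beyond its interval or a count by over 1.5 times, and a q value below 1e-05 in both lists was not among them. Of 62 alternatives for other results, such as the median FPKM of a class, 28 moved, and that stricter q value was among these. The 0.75-h mutant table and the set of genes over 10 kb were also added after seeing the data. The cause of these differences was not tested. The read depths of the pull-downs are unknown, so a gene missing from a list was not detected there, which is not the same as not bound.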
